A study of Bos taurus with 6 samples.

Results

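The 10 genes described here encode the proteins with which skeletal muscle moves calcium, stores oxygen and buffers ATP. They were taken by symbol from the mRNA-seq count table of intramuscular fat (IMF) of Qinchuan cattle. The table lists 25444 genes, of which 17752 had at least 1 count. ATP2A1, ATP2A2, RYR1, CASQ1, CASQ2, SLN, MB, CKM and CKMT2 were found, so that 9 of the 10 were measured, and CACNA1S, the voltage sensor of the T-tubule, was not analysed here. All 9 had counts in both libraries.

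The study compared steers, the castrated males (CM), with bulls, the intact males (IM). All animals were 24 months old Qinchuan males of a common sire, raised on the same diet and weaned at 3 months, and the steers had been castrated surgically at 6 months. IMF was dissected from the sternomandibularis muscle, and RNA was pooled within each group into 1 Ion Proton library. The series design gives 6 animals per pool, whereas the sample labels give 3. The spread between animals was therefore not measured, and every test and interval below compares these 2 libraries and not castrated with intact males. The counts summed to 12677375 in steers and to 9868415 in bulls, and 1 count was worth 0.0789 CPM (counts per 1000000 counts of the library) in steers and 0.101 CPM in bulls.

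In a muscle fibre, depolarization opens RYR1, the calcium release channel of the sarcoplasmic reticulum (SR), where calcium is held on calsequestrin. The SERCA pumps return calcium to the SR and are restrained by small membrane peptides such as sarcolipin. Fast fibres use SERCA1 (ATP2A1) and mostly calsequestrin 1 (CASQ1), whereas slow fibres use SERCA2 (ATP2A2) and also contain calsequestrin 2 (CASQ2), the form of the heart. Myoglobin (MB) and the mitochondrial creatine kinase CKMT2 belong to oxidative, mostly slow fibres, and the cytosolic creatine kinase CKM is most abundant in fast ones. ATP2A2 is also the housekeeping SERCA of cells other than muscle. ATP2A2, CASQ2, MB and CKMT2 were therefore treated as slow-type and ATP2A1, CASQ1 and CKM as fast-type, and RYR1 and SLN were placed in neither class.

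Relative to all genes, the 9 genes had a lower level in the pool of steers than in that of bulls, and together they made up 0.0885% of the library of steers and 0.165% of that of bulls. A single member, the slow-type CASQ2, passed the threshold and fell by 2.74 on the log2 scale. The other 8 lay between -0.97 for the slow-type MB and -0.29 for the fast-type ATP2A1. In bulk tissue, fewer muscle fibres and less RNA per fibre cannot be told apart. Between the same pools, slow sarcomere genes had a median log2 fold change of -2.23 and fast ones of 0.15. Relative to the median of 8 sarcomere genes taken as common to all fibres, 7 of the 9 members were higher in steers, as described below. The summed counts of these 8 genes, however, stood at -0.68, close to -0.66 for the summed counts of the members. Both sums rest mostly on a few abundant genes, ACTA1 among the sarcomere genes and CKM and MB among the members.

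For each gene, the counts were divided by median-of-ratios size factors (1.04 for steers and 0.959 for bulls), and both libraries were compared by an exact two-sided binomial test, adjusted by Benjamini-Hochberg over the 17752 genes. Calls needed an adjusted p below 0.05 together with a log2 fold change beyond 1 in either direction. By this rule 8.13% of all genes tested were called lower and 4.37% higher in steers, against 1 and 0 of the 9 members, that is 11.1% called lower. Among genes with at least 50 counts over both libraries the shares were 8.22% and 3.88%. Past the fold threshold alone, without a test, lay 16.4% of all genes in the lower and 13.1% in the higher direction, and again CASQ2 alone among the members. The count of members called was thus close to that of the genes at large. Intervals given with log2 fold changes and levels are 95% Clopper-Pearson bounds. They cover the error of counting reads and not the spread between animals or libraries, and reads that are PCR copies of a molecule would make them too narrow.

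The calcium pumps were the members nearest to equal levels. ATP2A1, the SERCA pump of fast fibres, had 1990 counts in steers and 2241 in bulls, or 157 and 227 CPM. Its log2 fold change was -0.29 (interval -0.38 to -0.21). ATP2A2, the pump of slow fibres and of other cells, had 1540 and 1904 counts, or 121 and 193 CPM. Its log2 fold change was -0.43 (-0.53 to -0.33), so that steers had 0.743 times the scaled level of bulls. Neither pump was called, and both lay within the middle 50% of all genes tested, which ran from -0.51 to 0.45. Genes of smooth muscle, another tissue that uses SERCA2, were measured beside them. In a list of 7 such genes, which made up 0.0881% of the library of steers and 0.117% of that of bulls, 0 were called by the exact binomial test and the median log2 fold change was -0.22. Each of the 7 had counts in both libraries. TAGLN, an actin-binding protein, was at 0.45 and ACTA2, smooth muscle actin, at -0.66. Their part in the level of ATP2A2 was not tested.

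SLN encodes sarcolipin, the small peptide that binds the pump and lowers its transport of calcium. It had 121 counts in steers and 156 in bulls, or 9.54 and 15.8 CPM. The log2 fold change was -0.49 (-0.84 to -0.14), and SLN had the largest adjusted p of the 9 members, 0.0178 in the exact binomial test. Fewer counts lay behind SLN than behind any other member except CASQ2, and its interval overlapped with those of both pumps.

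RYR1, the calcium release channel, was at 28.9 CPM in steers (367 counts) and 61.9 CPM in bulls (611 counts). On the log2 scale the difference was -0.86 (-1.05 to -0.67), an interval that spans the threshold, and RYR1 was not called. The related channels RYR2, known from heart, and RYR3 were rare, with 4 and 34 counts for RYR2 and 17 and 34 for RYR3. Both were called lower in steers, with log2 fold changes of -3.21 (-5.17 to -1.72) and -1.12 (-2.05 to -0.24). The handling of reads shared between such related genes is not given in the sources used here.

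The calsequestrins bind calcium inside the SR. CASQ1, the form of fast fibres, had 350 counts in steers and 484 in bulls, or 27.6 and 49.0 CPM, and a log2 fold change of -0.59 (-0.79 to -0.39). CASQ2 had 8 counts in steers and 49 in bulls. This is 0.631 CPM (interval 0.272 to 1.24) against 4.97 CPM (3.67 to 6.56), and the intervals do not overlap. The scaled level of CASQ2 was 6.67-fold higher in bulls. This is a log2 fold change of -2.74 (-4.03 to -1.65), and the adjusted p was 3.4e-08 in the exact binomial test. The call rests on few reads and on counting error alone. With an assumed biological coefficient of variation (CV) of 0.2 between pools, edgeR's exact test still called CASQ2 (adjusted p = 0.0019), but with 0.4 it did not (adjusted p = 0.364).

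MB, the oxygen store of red fibres, had 2383 counts in steers and 4276 in bulls, or 188 and 433 CPM. Its log2 fold change of -0.97 (-1.04 to -0.89) was the member value just short of the threshold. CKM, the cytosolic creatine kinase that regenerates ATP at the myofibril, had the most counts of the 9, 4191 in steers and 6133 in bulls. In CPM these were 331 and 621, which gave a log2 fold change of -0.67 (-0.73 to -0.61). CKMT2, which makes phosphocreatine at the mitochondrion, was at 21.2 CPM (269 counts) and 40.8 CPM (403 counts), with a log2 fold change of -0.71 (-0.93 to -0.48). None of these energy genes was called. All 9 members had a log2 fold change below 0, as had 49.3% of all genes tested, and the members' intervals lay below 0. All 9 also had an adjusted p under 0.05 in the exact binomial test. The share of all genes that did so is not given here, so this count is not a result about the members. With total counts in place of size factors, which places the median of all genes at -0.23, MB at -1.20 and RYR1 at -1.10 were also called lower.

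**Figure D1:**
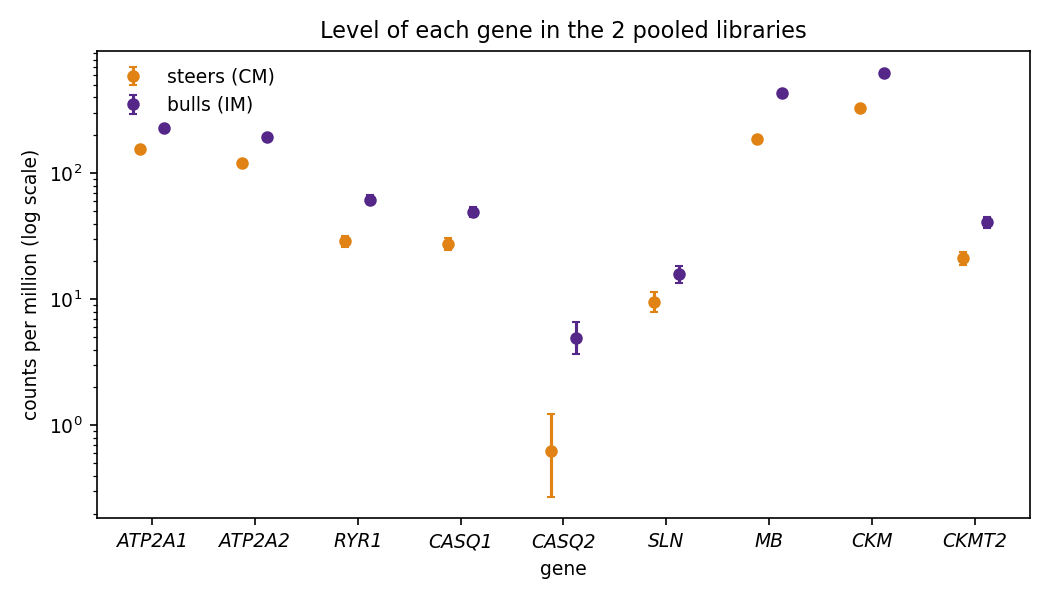
Level in CPM (log axis) of the 9 measured genes in the pooled library of steers (orange) and of bulls (purple), with 95% Clopper-Pearson intervals as bars. On this scale every gene sits lower in steers, and CASQ2, at 0.631 against 4.97 CPM, has the widest gap and the fewest counts. Levels of different genes are not adjusted for transcript length.

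Ordered by log2 fold change, the members ran from CASQ2 through MB, RYR1, CKMT2, CKM, CASQ1, SLN and ATP2A2 to ATP2A1. For each pair of neighbours the ratio of both genes was compared between the libraries, which needs no scaling, with an exact conditional interval. In 6 of the 8 neighbour pairs the interval held 0, which ordering by these same values makes likely. The exceptions were the step from CASQ2 to MB, 1.77 on the log2 scale (0.68 to 3.06), and the step from ATP2A2 to ATP2A1, 0.13 (0.0029 to 0.267). Over all 36 pairs of members the interval left out 0 in 22, among them all 8 pairs with CASQ2 and 14 of the 28 pairs without it. These intervals are not adjusted for the number of pairs. Because the order came from these same values, neighbours were close by construction and the sign of each difference was fixed in advance. MB differed from each of the other 8 members except RYR1, with the lower value against all but CASQ2.

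**Figure D2:**
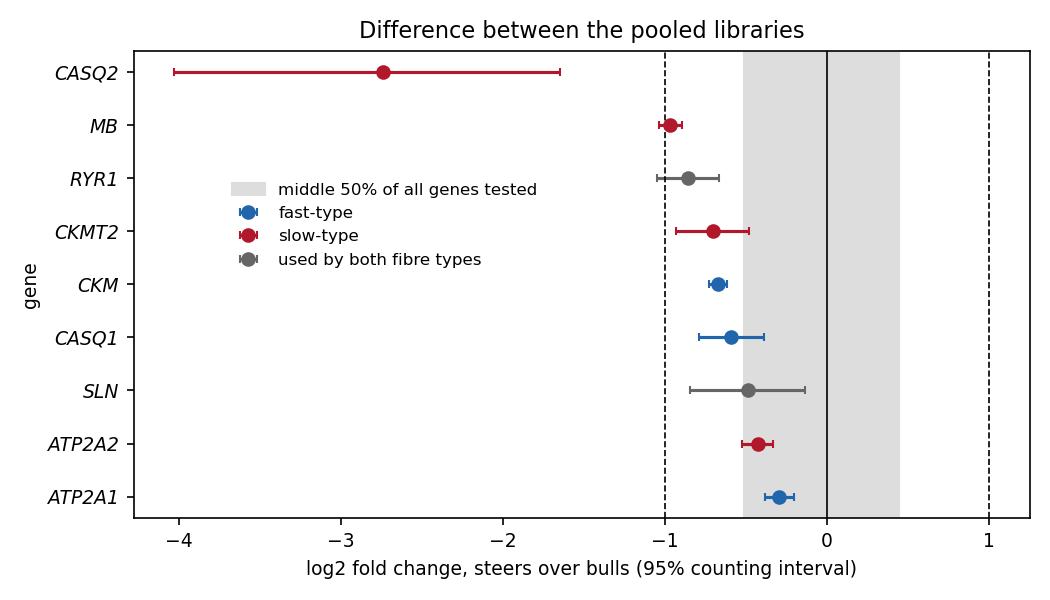
Log2 fold change of steers over bulls for each gene, with its 95% counting interval; red marks slow-type, blue fast-type and grey other members. Dashed lines mark the fold threshold and the grey band the middle 50% of all genes tested (-0.51 to 0.45). Between -0.97 and -0.29, the slow-type MB and CKMT2 lie below the fast-type genes, whereas the slow-type ATP2A2 lies above CKM and CASQ1. CASQ2 stands apart at -2.74.

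The 4 slow-type members had a median log2 fold change of -0.83 (with a prior of 0.5 counts, as for all medians) and the 3 fast-type members one of -0.59, a difference of -0.25. The median over all genes tested was 0.01. Since genes are not replicates, the difference is a description of 2 libraries. With the medians of the counting intervals' ends, taken at opposite extremes, in place of the members' values, it ran from -0.60 to 0.04. This span holds 0, but it has no confidence level and is not a test of slow-type against fast-type members. The difference also moved with the choice of genes. With the calcium genes alone (ATP2A2 and CASQ2 against ATP2A1 and CASQ1) it was -1.10, and with SLN counted as slow-type and RYR1 as fast-type it was -0.07. With 1 member left out in turn it lay between -0.39 without CKM and -0.12 without CASQ2 or without MB.

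Within a library, the slow form's share of a pair's counts can be compared without scaling. ATP2A2 made up 43.6% of the SERCA1 and SERCA2 counts in steers (interval 42.0 to 45.3) and 45.9% in bulls (44.4 to 47.5). The log2 ratio of the ratios was -0.13 (-0.27 to -0.0029), a small shift at the edge of counting error. CKMT2 made up 6.03% of the counts of both creatine kinases in steers and 6.17% in bulls, and here the interval of the log2 ratio, -0.27 to 0.20, held 0. The ratio of MB to CKM, formed after the values were seen, differed by -0.29 on the log2 scale (-0.39 to -0.20). CASQ2 made up 2.23% of the calsequestrin counts in steers (0.970 to 4.36) and 9.19% in bulls (6.88 to 12.0), a log2 ratio of -2.15 (-3.45 to -1.03).

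Sarcomere genes of slow and fast fibres were measured in the same way. MYH7, the slow myosin heavy chain, made up 11.1% of the counts of MYH7 and MYH2 in steers and 37.1% in bulls, a log2 ratio of -2.24 (-2.37 to -2.10). For the light chains MYL2 and MYLPF the share of MYL2 was 49.2% and 83.9%, for the troponins TNNT1 and TNNT3 that of TNNT1 was 29.0% and 64.0%, and for the Z-disc proteins MYOZ2 and MYOZ1 that of MYOZ2 was 6.15% and 25.1%. The log2 ratios of these pairs lay between -2.42 and -2.13. Their intervals overlapped with that of the calsequestrins but not with those of the SERCA pumps or the creatine kinases. The sarcomere pairs were chosen after their values were seen. The troponin pairs TNNI1 with TNNI2 and TNNC1 with TNNC2 were not analysed here, because TNNI1 and TNNC1 were not among the genes measured.

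**Figure D3:**
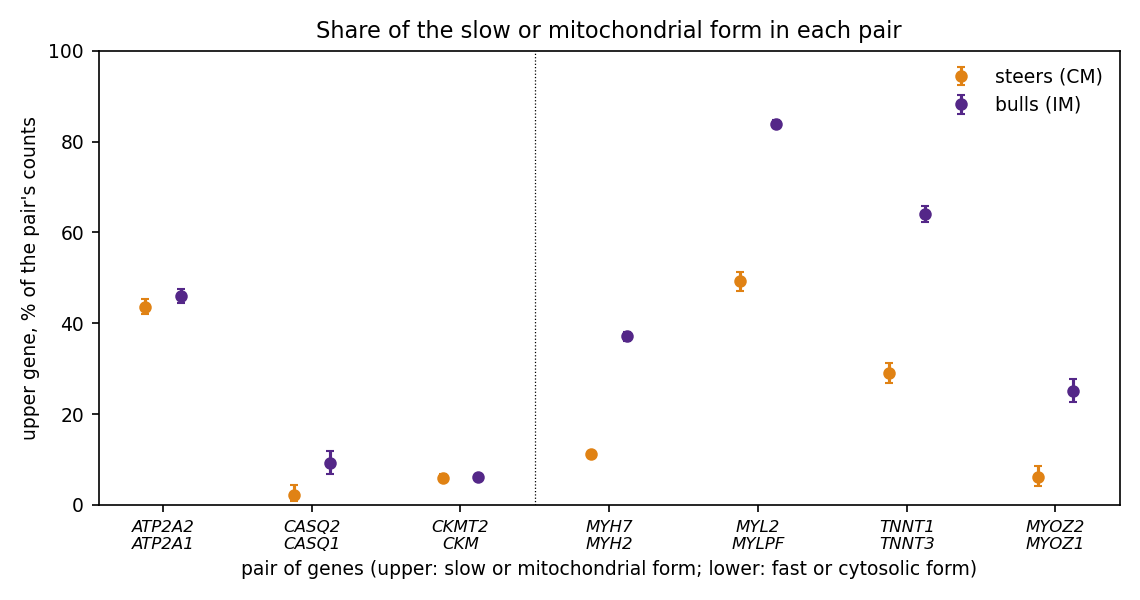
Share of the slow or mitochondrial form (upper name) in the summed counts of each pair, in percent, for steers (orange) and bulls (purple), with 95% Clopper-Pearson intervals; the dotted line separates members from sarcomere genes. The SERCA pair (43.6% and 45.9%) and the creatine kinase pair (6.03% and 6.17%) lie close together, whereas the calsequestrin pair and the 4 sarcomere pairs have a smaller slow share in steers.

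Against the sarcomere lists as a whole, the members took a middle place. Of 7 slow sarcomere genes all 7 were called lower in steers, with a median of -2.23, and MYL2, MYH7, MYBPC1 and TNNT1, the most abundant, were at -2.27, -2.23, -1.28 and -2.01. All 7 lay below each of the 8 members other than CASQ2. Of 9 fast sarcomere genes 1 was called higher, the fast myosin MYH1 at 1.15 (named after its value was seen), and 0 lower. Their median was 0.15, and -0.09 with total counts in place of size factors. MYH2 was at 0.01, TNNC2 at 1.00 (just under the threshold), TNNT3 at 0.11 and MYLPF at 0.15, and 7 of the 9 lay above every member. Of 8 sarcomere genes taken as common to all fibres, 3 were called lower. They were XIRP2 at -2.51, MYOM1 at -1.23 and TCAP at -1.07, also named after their values were seen. The median of these 8 genes was -0.88, with ACTA1, skeletal muscle actin, at -0.65 and TTN, titin, at -0.49. All 24 sarcomere genes together made up 0.269% of the library of steers and 0.506% of that of bulls, and each had counts in both libraries. The part of muscle content in the members' lower levels was not tested. When the libraries were scaled so that the median of the 8 common sarcomere genes was 0, the direction turned for most members. On that scale 7 of the 9 lay above 0, MB was at -0.09 and CASQ2 at -1.78, and the members' median was 0.21. RYR1, among the 7, was at 0.02. Before this scaling the 8 sarcomere genes themselves ran from -2.51 to -0.18. By summed counts they stood at -0.68 and the members at -0.66, so the count of 7 depends on the median as reference. Of the summed counts of the 8 genes, ACTA1 alone gave 13852 of 17701 in steers and 19910 of 26000 in bulls. CKM and MB gave 6574 of the members' 11219 counts in steers and 10409 of 16257 in bulls. The sums thus compare mainly these 3 genes.

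The proteins that work with the members at the triad, where T-tubule and SR meet, or elsewhere in calcium handling gave a mixed picture. Of 16 such partners, 5 were called lower and 2 higher in steers, and their median was -0.49. The lower ones were JSRP1, an SR protein of the junction, at -1.60 (14 and 39 counts), HRC, a calcium-binding SR protein, at -1.24 (47 and 102), PLN, the phospholamban that restrains SERCA2, at -1.14 (41 and 83), and STAC3 and CACNG1, partners of the voltage sensor, both at -1.12 (56 and 112, and 15 and 30). The higher ones were PVALB, the parvalbumin that buffers calcium in fast fibres, at 2.35 (72 counts in steers and 13 in bulls, interval 1.48 to 3.32), and S100A1, a calcium sensor, at 1.75 (759 and 208 counts, interval 1.52 to 1.97). PVALB and S100A1 thus differed in the opposite direction to all 9 members. Without PVALB and S100A1, 5 of 14 partners were called lower and 0 higher. The median of these 14 was -0.59, and 3 of them lay above 0. FKBP1A, which binds the release channel and is made in most cells, was at -0.05, and ASPH, whose locus also encodes junctin, was at 0.29.

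Other genes of muscle energy supply went both ways. Of 14, 1 was called lower and 0 higher, with a median of -0.35. Without the fold threshold 8 of the 14 had an adjusted p under 0.05 in the exact binomial test, 5 with a lower and 3 with a higher level in steers. The share of all genes tested with such a p is not given here. The called gene was AMPD1, the muscle AMP deaminase, at -1.38 (23 and 55 counts, interval -2.15 to -0.65). LDHB, a lactate dehydrogenase subunit also made outside muscle, was at 0.22, PYGM, the muscle glycogen phosphorylase, at -0.42 and ENO3, the muscle enolase, at -0.39. GAMT, which makes creatine, was at 0.84 (0.62 to 1.06), AK1, the adenylate kinase of muscle, at 0.46 and LDHA, the other lactate dehydrogenase subunit, at -0.54. These 3 genes were not called and were named after their values were seen.

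Counterparts of the members in other cells were taken as a comparison. Of the 14 with more than 3 counts in a library, 5 were called lower and 1 higher, with a median of -0.56. The higher one was CKB, the creatine kinase of brain and many other tissues, at 1.79 (1.40 to 2.19), opposite in direction to CKM and CKMT2. It had 263 counts in steers and 70 in bulls. ATP2A3, the SERCA of blood and immune cells, was at -1.64 (240 and 687 counts), CACNA1D, a calcium channel, at -1.75 (11 and 34), and CYGB, a globin related to MB, at -1.31 (88 and 200), beside RYR2 and RYR3 above. STIM1, the SR and ER calcium sensor, was at 0.24, the surface calcium pump ATP2B4 at -0.26 and the release channel ITPR1 at -0.45. CKMT1A, listed under its older symbol CKMT1B, had 0 and 3 counts, too few for a fold.

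Genes of immune cells were measured as well, because ATP2A3 is the SERCA of such cells. Of 9 myeloid genes 7 were called lower in steers. The most abundant, CSF1R at -0.92 and CD163 at -0.64, were not called. The sum of the 9 was 1623 CPM in steers and 4351 CPM in bulls. All 8 T cell genes were called lower, with CD3E at -2.98 and LCK at -3.41, and their sum was 7.34 CPM against 72.6 CPM. CD3G and CD7 had 0 counts in steers, and every marker had counts in bulls. The part of immune cells in the level of ATP2A3 was not tested.

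The label of the tissue was checked with 9 adipocyte genes. All were detected in both pools and made up 0.269% of the library of steers and 0.385% of that of bulls, with a median of -0.02, 1 called higher and 1 lower. CIDEC, a lipid droplet protein, was at 0.28 and FABP4, the fatty acid binding protein of adipocytes, was called lower at -1.06. CIDEA, the gene called higher, was at 2.75 and was named after its value was seen. Genes of matrix-forming cells were far more abundant, with 7 genes making up 9.24% of the library of steers and 5.63% of that of bulls, a median of 0.93 and 2 called higher. COL3A1 was at 1.27 and COL1A2 at 0.93, and COL1A1, at 1.00, was the other gene called.

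**Figure D4:**
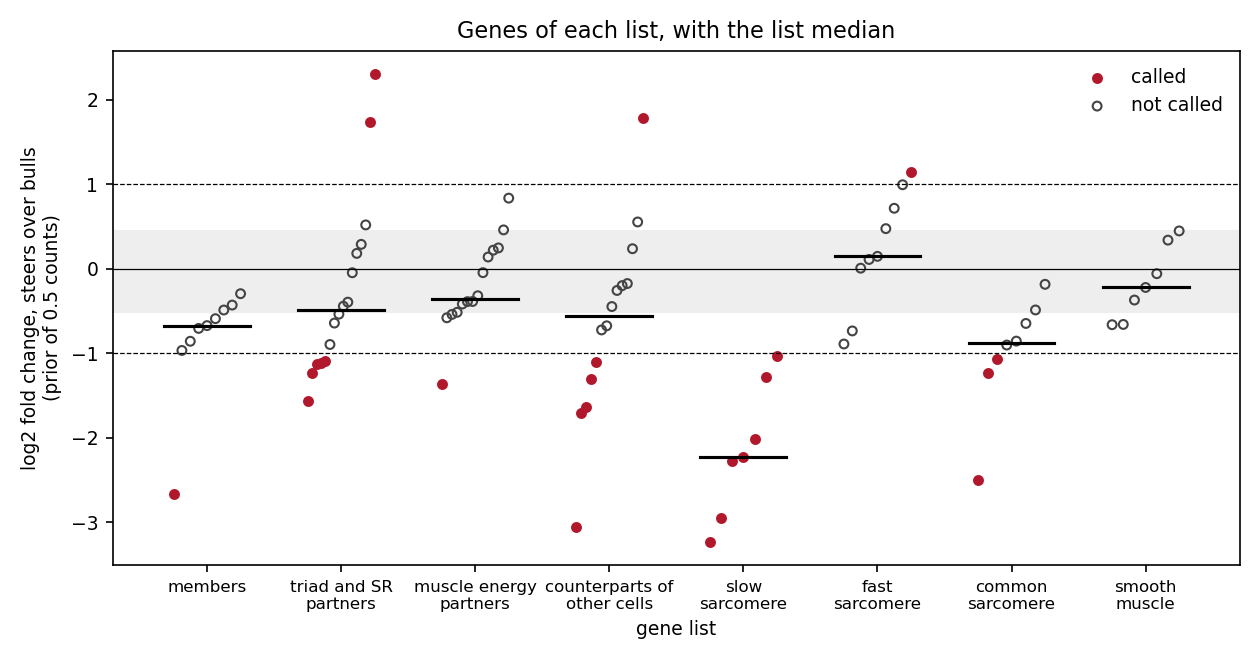
Log2 fold change of steers over bulls (prior of 0.5 counts) of every gene with more than 3 counts in a library, by list; filled red points were called, open points were not, and the black bar is the list's median. Dashed lines mark the fold threshold and the band the middle 50% of all genes tested. The members (median -0.67) sit between the slow sarcomere genes (-2.23) and the fast ones (0.15), near the common sarcomere genes (-0.88).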

How the data were processed

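The mRNA counts are raw counts per gene, deposited by the authors without normalization. Adaptors and reads of low quality had been removed and the clean reads placed by MapSplice, per the study's methods on the bovine genome. The submitters' processing notes name a human build, GRCh37.p13, instead. Of the 25444 gene names, 17015 match symbols that RefSeq lists for cattle, and of 8798 names made of LOC and a gene number 3492 carry a number listed there for cattle. Which genome the reads were placed on was not tested further. The counting program, its use of strand and its treatment of shared reads are not given in the sources used here. The table has no gene lengths or positions, so levels were compared between libraries only. The deposited miRNA counts of 4 libraries were not used here.

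Libraries were grouped by their labels. Size factors, the exact binomial test (two-sided, by doubling the smaller tail) and the intervals were computed with numpy 2.4.6 and scipy 1.17.1, over all genes on which a read was counted (minimum 1). EBSeq, which the study used, was not run. The binomial test was run on a simulation of these 2 libraries over 17296 genes with no error beyond counting. It recovered 199 of 200 genes set to change 4-fold and called 3 others. The 200 were drawn only from genes above a minimum expected count in both libraries. With no change and a CV of 0.4 between pools the binomial test called 3249 of 17276 genes.

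Alternatives were total counts, TMM and upper-quartile scaling (edgeR 4.0.16 under R 4.3.3), scaling to common sarcomere genes, a minimum of 10 counts, edgeR's exact test with assumed CVs of 0.2 and 0.4, a prior of 5 counts and other slow and fast classes. The genes and lists (slow, fast and common sarcomere, triad partners, energy partners, counterparts, adipocyte, smooth muscle, matrix, myeloid and T cell) were chosen from general knowledge with earlier results of these data known. The genes named are all members, the called genes and the 3 most abundant of the partner and counterpart lists, the 4 most abundant slow and fast sarcomere genes and the 2 most abundant of each other list. Others are marked where they appear.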

Additional observations from a re-analysis of the deposited data

How the results depend on the processing

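All 9 members kept a log2 fold change below 0 with total counts, TMM and upper-quartile scaling. These scalings placed the median of all genes at -0.23, -0.01 and 0.03, against 0.01 in the main setting. Such shifts were downward or too small to turn a sign. By contrast, 7 members lay above 0 when the median of the common sarcomere genes was set to 0. CASQ2 was called with total counts, TMM and upper-quartile scaling and with a minimum of 10 counts. With total counts 3 members instead of 1 were called lower and 3 lay past the fold threshold. The slow-type median was then -1.07 and the fast-type median -0.83. Their difference was bound to stay the same, because a change of scaling shifts all genes alike. With an assumed CV of 0.4, edgeR's exact test called 0 members lower and 93 genes in all, compared with 762 at a CV of 0.2 and 1444 in the binomial test. The genes called higher were 52, 368 and 776. Total counts gave 2006 lower and 539 higher, so that 21.2% instead of 35.0% of the calls were higher. With the calcium genes alone the slow-type median was -1.54 and the difference from the fast-type -1.10. Of the fast sarcomere genes 1 was called lower and 0 higher with total counts, and 2 higher with upper-quartile scaling. Of the common sarcomere genes 5 were called lower with total counts, and of the matrix genes 1 was called higher with total counts and with TMM. No paired analysis was possible because each group has 1 mRNA library, and for the same reason no library could be left out. Depth limits CASQ2 most, since its level in steers rests on 8 counts.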
